A study of Schizosaccharomyces pombe with 40 samples.

Results

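The step examined here ran from 2 h to 3 h after induction in wt cells of a synchronized fission yeast (Schizosaccharomyces pombe) meiosis. It was chosen by its labels alone, as the 2 wt libraries of 3 h against the 2 wt libraries of 2 h, which are 4 of the 40 libraries of the series. Both groups were haploid h- cells of genotype leu1-32, pat1-L95G::kanR, an ATP-analogue-sensitive allele of the Pat1 kinase. The cells were held overnight without nitrogen, then received leucine, NH4Cl and the Pat1 inhibitor 3-MB-PP1 at 25 µM, for 3 h in one group and for 2 h in the other. Both groups went through the same starvation, and since every wt stage carries these alleles no group here is an unmodified wild type, and the haploid cells enter meiosis with no homologous chromosomes to pair. The other 36 libraries held the remaining wt stages (vegetative, nitrogen-starved, 1 h and 4 h to 8 h) and the same 10 stages of snR107kloopmut (kloopmut from here on), which also carries a mutation in the kink-loop of the snR107 snoRNA. Polyadenylated RNA was counted over 12684 annotated features, and the labels call the replicates biological.

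In fission yeast, Pat1 inactivation frees the RNA-binding protein Mei2 and starts a cascade of transcription. The HMG-box factor Ste11, which binds TR boxes, drives the mating and early genes, the MBF complex binds MluI boxes of premeiotic S-phase genes, and the forkhead factor Mei4, which binds FLEX motifs, drives the genes of the divisions and of sporulation. After S phase, cells enter prophase: linear elements form on Rec8 cohesin, programmed DNA breaks are repaired by recombination, and dynein sweeps the nucleus to and fro in the horsetail movement.

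Total counts were 25940540 and 30514754 in the 3 h libraries and 23113586 and 32659249 in the 2 h libraries, within the 22889781 to 35440184 of the whole series. Replicates correlated with r = 0.991 at 3 h and 0.992 at 2 h across features, which are not independent replicates. Levels are given as RPKM, the counts of a feature scaled to its length and to the library size adjusted by TMM factors. Differences are log2 differences, 3 h minus 2 h, ± SE from the fit of edgeR's quasi-likelihood test, called at an adjusted p below 0.05. With 2 libraries against 2, an exact permutation test could not go below p = 0.333 (two-sided), so every call rests on the spread shared across features and across the 20 groups. In bulk RNA, fewer cells with a transcript and less of it per cell cannot be told apart. The counting's strand setting is not given in the sources used here, so reads of a gene and of an overlapping or antisense feature cannot be told apart either.

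The labelled mating type was checked first. The genes of h- (M) cells ranged widely in level. mfm1, one of the M-factor precursors, had 1176 and 1900 RPKM at 3 h, against 6644 and 7599 RPKM at 2 h. mam1, the exporter of M-factor, had 22.7 and 29.2 RPKM at 3 h, against 121 and 140 RPKM at 2 h. Of the genes of the opposite (P) type, the P-factor precursor map2 was near 0, with 0.323 and 0.370 RPKM at 3 h and 0.344 and 0.0819 RPKM at 2 h. The other P genes were above that. map3 (M-factor receptor) had 26.5 and 24.0 RPKM at 3 h and 27.3 and 28.8 RPKM at 2 h. sxa1 (a protease) had 237 and 240 RPKM at 3 h and 316 and 288 RPKM at 2 h. At 3 h map3 was thus near mam1 and sxa1 above it, so neither told the mating types apart by level. All 6 M genes fell, and of the 3 P genes sxa1 did (log2 -0.34 ± 0.11, adjusted p = 0.016), a call lost with any 1 of the 4 libraries left out. mei3, the Pat1 inhibitor that zygotes of both mating types make, reached at most 4.98 RPKM in any of the 40 libraries.

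Matches to the 3 motifs above are counted later, over all coding genes and in the gene lists. Stretches upstream of some genes on which the results turn are shown here. They were read from the RefSeq genome ASM294v3 and written 5′ to 3′ along the gene's strand, each from 40 bases before its first to 40 bases after its last match, within the 250 bases before the annotated start. Capitals mark the motif. The first 2 carry MluI boxes (ACGCGT, its own reverse complement) before prophase genes that rose: rec8, the meiotic cohesin subunit, and hop1, a linear element protein.
rec8, chrII:2568849-2568937, plus strand: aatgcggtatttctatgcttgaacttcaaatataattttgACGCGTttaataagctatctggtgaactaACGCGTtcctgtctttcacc
hop1, chrII:3472198-3472292, plus strand: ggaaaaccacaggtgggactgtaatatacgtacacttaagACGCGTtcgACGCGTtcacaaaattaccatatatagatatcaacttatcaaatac

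The next 2 carry the same box before S-phase genes that fell: cdc22, the large subunit of ribonucleotide reductase, and cdt2, an adaptor of a ubiquitin ligase active in S phase.
cdc22, chrI:4226868-4226963, plus strand: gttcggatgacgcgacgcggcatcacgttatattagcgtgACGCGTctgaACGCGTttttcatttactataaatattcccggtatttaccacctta
cdt2, chrI:2035709-2035866, minus strand: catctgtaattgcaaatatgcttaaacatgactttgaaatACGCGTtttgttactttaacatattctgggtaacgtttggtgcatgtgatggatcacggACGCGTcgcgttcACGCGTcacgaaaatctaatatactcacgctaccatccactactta

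The following 3 carry TR box cores (TTCTTTGTT, or AACAAAGAA on the other strand) before pheromone genes that fell: rgs1, which damps G-protein signalling, spk1, the pheromone MAP kinase, and ste4, an adaptor of the kinase Byr2.
rgs1, chrI:679576-679766, plus strand: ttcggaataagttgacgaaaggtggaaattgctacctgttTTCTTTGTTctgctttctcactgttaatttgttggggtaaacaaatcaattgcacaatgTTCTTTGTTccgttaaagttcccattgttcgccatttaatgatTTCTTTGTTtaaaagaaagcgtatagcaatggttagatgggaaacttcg
spk1, chrI:3001520-3001745, minus strand: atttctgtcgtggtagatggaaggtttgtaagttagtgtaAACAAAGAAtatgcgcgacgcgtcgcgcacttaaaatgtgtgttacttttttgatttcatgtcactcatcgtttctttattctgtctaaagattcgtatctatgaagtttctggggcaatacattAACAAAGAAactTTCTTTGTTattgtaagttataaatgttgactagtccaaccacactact
ste4, chrI:1296549-1296637, minus strand: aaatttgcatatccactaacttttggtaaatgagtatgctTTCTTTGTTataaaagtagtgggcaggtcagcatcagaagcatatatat

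The last 3 carry FLEX cores (GTAAACA, or TGTTTAC on the other strand) before genes that rose: isp3, a protein of the spore surface, mei4 itself, and moa1, which makes sister kinetochores face the same pole in the first division.
isp3, chrI:95540-95785, plus strand: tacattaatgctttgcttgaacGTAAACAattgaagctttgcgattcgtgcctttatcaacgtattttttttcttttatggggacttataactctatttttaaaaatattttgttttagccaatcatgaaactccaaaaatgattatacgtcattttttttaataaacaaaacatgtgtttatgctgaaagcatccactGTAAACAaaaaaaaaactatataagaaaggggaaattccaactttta
mei4, chrII:1472941-1473027, plus strand: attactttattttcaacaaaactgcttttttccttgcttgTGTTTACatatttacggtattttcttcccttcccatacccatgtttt
moa1, chrI:3729049-3729135, minus strand: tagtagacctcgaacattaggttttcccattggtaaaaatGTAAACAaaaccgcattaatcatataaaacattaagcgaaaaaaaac

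Between 2 h and 3 h, 3934 of the 12019 features tested changed. Of all features tested, 15.2% rose and 17.6% fell, and among the 5075 protein-coding genes 16.9% (860) rose and 23.6% (1199) fell. Of the 6747 lncRNAs tested, 931 rose and 904 fell. Changes of at least 2-fold were more often rises over all features (760 rose, 561 fell), but not among protein-coding genes (229 rose, 281 fell). The split between rises and falls depended on the scaling. Rises were 46.3% of the calls with TMM factors, 58.9% with DESeq2 size factors and 79.0% with total counts, and the median over all features was -0.01, 0.08 and 0.28 in the same order. The values that follow are those with TMM factors, and are relative to a median near 0.

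The 12 largest rises and the 12 largest falls were named among the 448 coding genes that passed the test, differed by at least 1 on the log2 scale in the same direction in both replicate numbers and had a mean of at least 5 RPKM at the higher hour. These genes were picked by their change, so their values are a description.

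**Figure D1:**
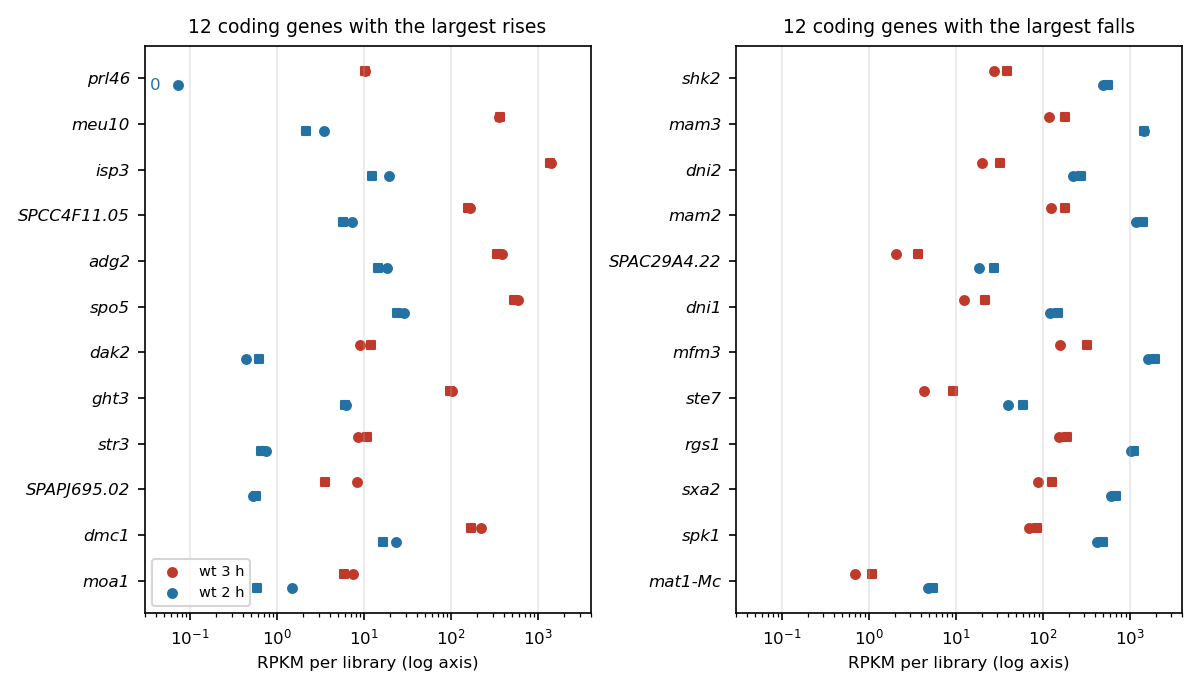
RPKM per library on a log axis for the 12 coding genes with the largest rises (left) and the 12 with the largest falls (right); red is wt 3 h, blue is wt 2 h, circles are replicate 1 and squares replicate 2, and a printed 0 stands for a library with no count. In every gene shown, both libraries of 3 h lie on the same side of both libraries of 2 h, by a wide gap in meu10 and isp3.

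meu10 (SPCC1223.12c, chromosome III, 1866916 to 1870095), which encodes a cell-surface protein needed for the spore wall, had 356 and 367 RPKM at 3 h, against 3.49 and 2.12 RPKM at 2 h (log2 7.02 ± 0.25, adjusted p = 3.4e-18). isp3 (SPAC1F8.05, chromosome I, 95790 to 96966) had 1390 and 1355 RPKM at 3 h, against 19.1 and 12.4 RPKM at 2 h (6.45 ± 0.47, adjusted p = 1.1e-11). For both genes 3 h was only the start of the rise: the wt mean of isp3 went on to 17941 RPKM at 4 h and peaked at 8 h, and that of meu10 peaked at 6 h. spo5, an RNA-binding protein of the meiotic divisions, had 583 and 533 RPKM at 3 h, against 29.1 and 23.8 RPKM at 2 h (4.40 ± 0.22). Of meu10 and isp3, 89.6% and 62.5% of the length is shared with another feature, and of spo5 6.03%.

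The largest difference, log2 8.08 ± 0.49, was that of prl46 (SPAC144.19, a Schizosaccharomyces-specific protein that shares no base with another feature). It had 425 counts over the 3 h libraries against 1 count over the 2 h libraries, a ratio of 343 with a 95% counting interval of 61.3 to 13593. adg2, listed with the genes of mitotic cell separation, had 382 and 338 RPKM at 3 h, against 18.4 and 14.6 RPKM at 2 h (4.45 ± 0.17). dmc1, the strand-exchange recombinase of meiosis, had 219 and 170 RPKM at 3 h, against 23.4 and 16.4 RPKM at 2 h (3.29 ± 0.21), and all of its length is shared. moa1 had 7.41 and 5.88 RPKM at 3 h, against 1.48 and 0.582 RPKM at 2 h (2.73 ± 0.66, adjusted p = 0.0018), a low level at both hours. The remaining rises among the 12 were SPCC4F11.05 and SPAPJ695.02, which encode uncharacterized proteins, dak2 (dihydroxyacetone kinase), ght3 (gluconate symporter) and str3 (siderophore-iron transporter), with differences between 3.42 and 4.62.

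Of the 12 largest falls, 5 (mam3, mfm3, rgs1, sxa2 and spk1) were on the pheromone list described later. shk2 (SPAC1F5.09c, chromosome I, 273152 to 274921), a PAK-family kinase, had 27.8 and 38.9 RPKM at 3 h, against 489 and 561 RPKM at 2 h (-3.98 ± 0.16, adjusted p = 2.4e-17). mam3, the adhesin of M cells, had 117 and 178 RPKM at 3 h, against 1464 and 1460 RPKM at 2 h (-3.31 ± 0.20). mam2, the receptor for P-factor, had 126 and 183 RPKM at 3 h, against 1186 and 1412 RPKM at 2 h (-3.07 ± 0.15). In each of these 3 genes both 3 h libraries lay far under both 2 h libraries.

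dni1 and dni2, membrane proteins of cell fusion, fell together (-2.99 ± 0.22 and -3.25 ± 0.20), as did the mating gene ste7 (-2.86 ± 0.32). The remaining falls among the 12 were mfm3 (an M-factor precursor), rgs1, sxa2 (the carboxypeptidase that degrades P-factor), spk1, the uncharacterized SPAC29A4.22, and mat1-Mc (-2.53 ± 0.84, adjusted p = 0.022), the HMG-box factor that defines M cells. mat1-Mc had 0.694 and 1.09 RPKM at 3 h, against 4.86 and 5.54 RPKM at 2 h. Its copy mat3-Mc has like values and reads cannot be split between the copies with certainty, and the call was lost without any 1 of the 4 libraries. Of these 24 genes, 8 share no base with another feature and 11 share at least 50% of their length.

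Gene lists were chosen for the biology of these hours, and their members are given by role. Their counts stand beside 16.9% rises and 23.6% falls over all coding genes. The median of 4 lists (replication machinery, mitotic cohesin, nitrogen starvation and tubulin and spindle motors) and that of the meiotic switch list turned from below 0 to above 0 with total counts, and the counts of those lists follow the scaling.

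**Figure D2:**
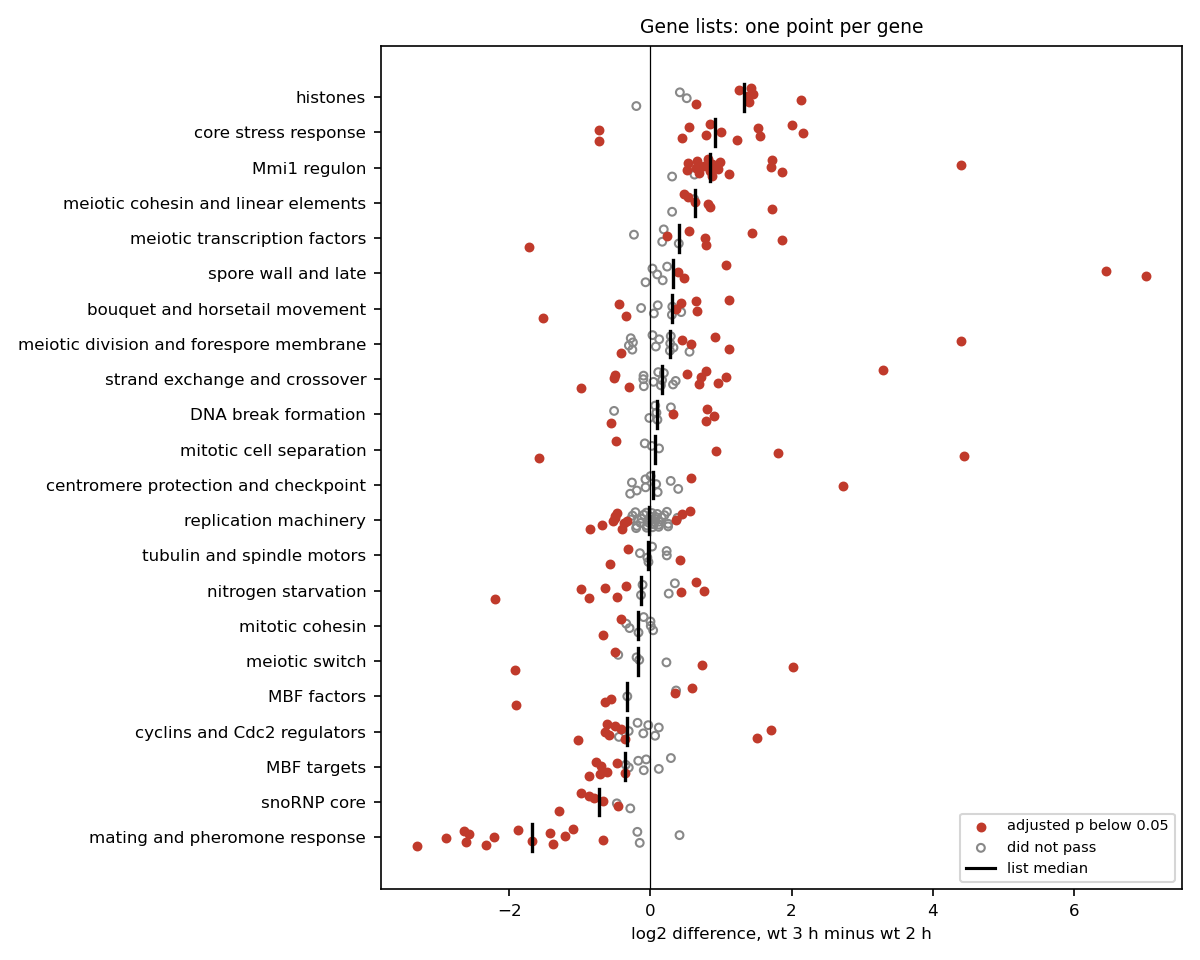
Log2 difference, wt 3 h minus wt 2 h, with 1 point per gene for 22 gene lists ordered by their median (black bar); filled red points passed an adjusted p below 0.05 and open grey points did not. Histones stand at the top with a median of 1.32 and mating genes at the bottom with -1.68, while the replication list lies around 0.

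The pheromone pathway fell at nearly every level. Of 17 genes, 14 fell and none rose, with a median of -1.68 beside -0.01 over all features. The count of falls was 14 with each of the 4 libraries left out and under all 3 scalings. The M-factor precursors mfm1, mfm2 and mfm3 fell (-2.21 ± 0.31, -1.68 ± 0.38 and -2.90 ± 0.49), with mam1, the transporter that exports M-factor (-2.33 ± 0.15), and mam4, which methylates it (-1.87 ± 0.13). Among the signalling genes, the G-protein alpha subunit gpa1 had 97.8 and 110 RPKM at 3 h, against 217 and 228 RPKM at 2 h (-1.10 ± 0.11), and ste4 had 44.3 and 44.2 RPKM at 3 h, against 95.8 and 108 RPKM at 2 h (-1.21 ± 0.16). spk1 had 69.0 and 86.3 RPKM at 3 h, against 423 and 496 RPKM at 2 h (-2.57 ± 0.15).

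Its upstream kinases did not pass the test. byr1 had 73.3 and 78.1 RPKM at 3 h and 83.8 and 88.3 RPKM at 2 h (-0.19 ± 0.11), and byr2 had 11.1 and 12.7 RPKM at 3 h and 8.55 and 9.32 RPKM at 2 h (0.41 ± 0.16, adjusted p = 0.051). Of the list these and map3 alone missed the test, and byr2 passed it as a rise with DESeq2 size factors and with total counts. ste11, whose product also acts on its own gene, had 30.7 and 33.6 RPKM at 3 h, against 104 and 109 RPKM at 2 h (-1.73 ± 0.22).

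Among the genes of the meiotic switch, pat1 had 16.9 and 24.1 RPKM at 3 h, against 75.4 and 79.8 RPKM at 2 h (-1.92 ± 0.21, adjusted p = 2.2e-08), with all of its length shared. mei2 had 293 and 381 RPKM at 3 h and 396 and 528 RPKM at 2 h and did not pass (-0.46 ± 0.18, adjusted p = 0.057). mei3 rose at a very low level, with 3.31 and 4.31 RPKM at 3 h, against 0.847 and 1.02 RPKM at 2 h (2.02 ± 0.39). sme2, which gives the non-coding meiRNA that binds Mei2, rose (0.73 ± 0.21), and mmi1, the remover of meiotic mRNAs, fell (-0.50 ± 0.16). Of the 8 genes 2 rose and 2 fell. The call of mmi1 was lost with DESeq2 size factors, with total counts and in a DESeq2 fit. It was also lost with wt 2 h replicate 2 or either 3 h library left out. Of the 19 genes listed as targets of Mmi1, 17 rose and none fell (median 0.84), and 13 had their highest wt mean at 3 h.

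Of 14 MBF targets, 7 fell and none rose (median -0.35), and 9 of the 14 had their highest wt mean at 2 h. cdc22 had 191 and 205 RPKM at 3 h, against 347 and 299 RPKM at 2 h (-0.71 ± 0.14, adjusted p = 1.8e-04), and cdt2 140 and 161 RPKM at 3 h, against 249 and 243 RPKM at 2 h (-0.71 ± 0.14). tos4, a forkhead-associated-domain protein, and cdt1, which loads the replicative helicase at origins, fell by a like amount (-0.77 ± 0.17 and -0.87 ± 0.23). The count of falls was 3 without wt 3 h replicate 1 and 4 with total counts.

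Of the MBF factors themselves, rep1, the coactivator of premeiotic S phase, had 15.6 and 19.5 RPKM at 3 h, against 60.2 and 70.7 RPKM at 2 h (-1.90 ± 0.12, adjusted p = 1.4e-12). cdc10 and res1 fell (-0.64 ± 0.11 and -0.56 ± 0.13), while res2, the DNA-binding subunit with a meiotic role, rose (0.59 ± 0.11), as did the corepressor nrm1 (0.35 ± 0.10). In the replication machinery the falls were led by mcm2 (-0.86 ± 0.13) and cdc45 (-0.69 ± 0.12). mcm2 had 12.8 and 14.6 RPKM at 3 h, against 25.1 and 24.7 RPKM at 2 h. Beside 23.6% falls and 16.9% rises over all coding genes, this list of 42 had 9 falls and 3 rises (median -0.01). Its direction was set by the scaling, with 12 rises and 2 falls under total counts, and any 1 library left out reduced the falls to 4 or 5.

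Histone genes rose in the same hour. Of 10 histone genes 7 rose and none fell (median 1.32). hhf3, a histone H4 gene, had 1694 and 2040 RPKM at 3 h, against 469 and 378 RPKM at 2 h (2.14 ± 0.17, adjusted p = 4.9e-11). hta2 (histone H2A) had 2532 and 2765 RPKM at 3 h, against 1048 and 887 RPKM at 2 h (1.45 ± 0.15). htb1, the gene for H2B, rose less (0.65 ± 0.16), and hta1 (0.51 ± 0.21), hht2 (0.42 ± 0.21) and pht1, the variant H2A.Z (-0.20 ± 0.14), did not pass. The H3 and H4 genes encode the same proteins, so the sharing of reads among hht1, hht2 and hht3 and among hhf1, hhf2 and hhf3 is uncertain. In wt cells 7 of the 10 had their highest mean at 3 h.

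The 2 alternative kleisins of cohesin moved apart. The mitotic kleisin rad21 had 11.2 and 13.2 RPKM at 3 h, against 20.5 and 18.4 RPKM at 2 h (-0.67 ± 0.12), and the loader mis4 fell as well (-0.41 ± 0.12). They were the only calls among 9 mitotic cohesin genes, and that of mis4 was lost without any 1 library. Its meiotic counterpart rec8 had 41.7 and 37.0 RPKM at 3 h, against 12.5 and 11.3 RPKM at 2 h (1.72 ± 0.29, adjusted p = 2.4e-05). Of the 8 genes of meiotic cohesin and linear elements 6 rose and none fell (median 0.63). hop1 had 196 and 161 RPKM at 3 h, against 108 and 93.6 RPKM at 2 h (0.82 ± 0.13), and rec27 and mug20, linear element proteins, rose by 0.84 ± 0.17 and 0.64 ± 0.13. rec10 (0.31 ± 0.19) and the kinase mek1 (0.62 ± 0.26) did not pass. All 8 had their highest wt mean at 3 h.

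Recombination genes changed unevenly. rec12, the enzyme that makes meiotic DNA breaks, had 29.6 and 29.6 RPKM at 3 h and 29.9 and 29.9 RPKM at 2 h (-0.02 ± 0.19). Its partners rec15, rec24 and mde2 rose (0.90 ± 0.27, 0.81 ± 0.17 and 0.78 ± 0.11), and rec7 fell (-0.56 ± 0.16); of 11 break genes 4 rose and 1 fell, and the fall was lost without wt 2 h replicate 1 or either 3 h library. Among 21 genes of strand exchange and crossover 7 rose and 4 fell. mus81, a nuclease that makes crossovers, had 95.8 and 99.2 RPKM at 3 h, against 48.8 and 44.0 RPKM at 2 h (1.07 ± 0.13), and the Dmc1 accessory genes meu13, sfr1 and mcp7 rose by 0.96 ± 0.27, 0.72 ± 0.16 and 0.68 ± 0.18. In contrast, rad54, a motor protein of recombination, had 42.0 and 43.6 RPKM at 3 h, against 86.3 and 83.5 RPKM at 2 h (-0.99 ± 0.13). Leaving out any 1 library left 1 or 2 of the 4 falls, that of rad54 among them. With total counts 13 of the 21 rose and 1 fell.

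Of 14 genes of the telomere bouquet and horsetail movement 5 rose and 3 fell. ssm4, a dynactin subunit, had 17.9 and 13.7 RPKM at 3 h, against 8.12 and 6.49 RPKM at 2 h (1.11 ± 0.24), and num1 (mcp5), the cortical anchor of dynein, rose by 0.65 ± 0.15. The dynein heavy chain dhc1 went the other way, with 3.50 and 3.88 RPKM at 3 h, against 9.67 and 11.5 RPKM at 2 h (-1.52 ± 0.12, adjusted p = 9.4e-11). Leaving out wt 2 h replicate 2 or wt 3 h replicate 1 left 3 rises, and with total counts there were 9 rises and 1 fall. Of 12 genes of centromere protection and the spindle checkpoint, moa1 and bub3 rose and none fell, beside 16.9% rises over all coding genes. Neither moa1 nor bub3 was called without wt 2 h replicate 2.

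Of 11 meiotic transcription factors 6 rose and ste11 fell. mei4 had 20.6 and 20.7 RPKM at 3 h, against 5.32 and 6.00 RPKM at 2 h (1.87 ± 0.16, adjusted p = 3.3e-10), and its wt mean went on to 46.5 RPKM at 4 h and 195 RPKM at 6 h. fkh2, another forkhead factor, had 49.0 and 48.1 RPKM at 3 h, against 29.9 and 26.4 RPKM at 2 h (0.79 ± 0.17), and atf21, a bZIP factor, rose by 0.78 ± 0.15. Without wt 2 h replicate 2 or wt 3 h replicate 1 the rises numbered 4. Most genes of the divisions and the forespore membrane did not pass. Of the 18, cdc25, an activator of Cdc2, fell (-0.42 ± 0.12), a call lost with any 1 of the 4 libraries left out. In the same list 5 rose, with spo5, spn7 (a septin, 1.11 ± 0.17) and spo2 (0.91 ± 0.24) ahead, and 12 of the 18 had their highest wt mean at 6 h. spo6, a regulator of the second division, had 33.0 and 32.7 RPKM at 3 h and 32.7 and 29.6 RPKM at 2 h (0.08 ± 0.19). With DESeq2 size factors 10 of the 18 rose, and 8 did without wt 3 h replicate 1.

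Of 10 spore wall and late genes 5 rose, which were meu10, isp3, the glucan synthase gene mok13 (1.07 ± 0.15), agn2 (0.47 ± 0.14) and chs1 (0.39 ± 0.14). The 2 leading genes exceeded 6 on the log2 scale, and the other 3 stayed near or under 1. Among 16 cyclins and regulators of Cdc2, the meiotic cyclins crs1 and rem1 rose. crs1 had 98.1 and 112 RPKM at 3 h, against 35.0 and 29.2 RPKM at 2 h (1.71 ± 0.26), and rem1 had 23.4 and 24.3 RPKM at 3 h, against 8.20 and 8.58 RPKM at 2 h (1.50 ± 0.23). The mitotic cyclin cdc13 had 103 and 102 RPKM at 3 h and 100 and 95.5 RPKM at 2 h (0.07 ± 0.13), and cdc2 also did not pass. The 7 falls were led by puc1, a G1 cyclin (-1.03 ± 0.17), and rum1, an inhibitor of Cdc2 (-0.64 ± 0.14). They numbered 3 to 5 with any 1 library left out and 1 with total counts.

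**Figure D3:**
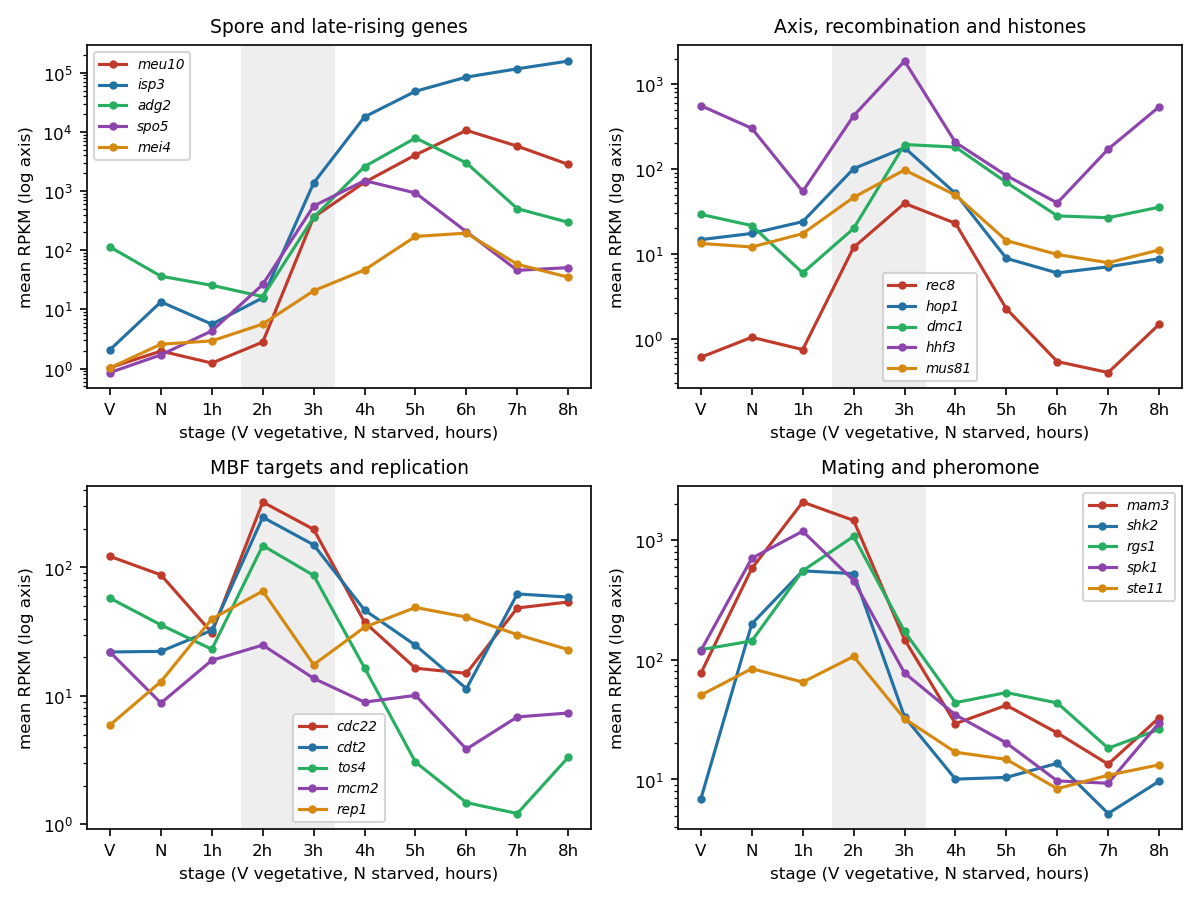
Mean RPKM of 2 wt libraries per stage on a log axis, from vegetative (V) and starved (N) cells through 1 h to 8 h, for 20 genes in 4 panels, with 2 h and 3 h shaded. rec8, hop1, dmc1, hhf3 and mus81 peak at 3 h and cdc22, cdt2, tos4, mcm2 and rep1 at 2 h, while meu10 and isp3 go on rising to 6 h and 8 h.

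Over the whole wt course, the 860 coding genes that rose in this hour had their highest mean most often at 6 h (20.8%, against 16.0% of all 5075 coding genes) and at 3 h (17.9%, against 9.9%). The 1199 that fell had it most often at 1 h (32.2%, against 14.7%). Since the same libraries enter both the change and the stage of the highest mean, these shares are a description.

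Genes of growth fell in concert. Of 131 ribosomal protein genes 116 fell and 1 rose (median -1.25), and their summed level was 42682 and 56455 RPKM at 3 h, against 112905 and 124650 RPKM at 2 h. rps1502 had 262 and 340 RPKM at 3 h, against 922 and 1043 RPKM at 2 h (-1.71 ± 0.19). With any 1 library left out 99 to 111 of them fell, and 111 did with total counts. The many near-identical copies make single members uncertain. Of the 8 core proteins of snoRNPs, the particles that modify ribosomal RNA, 6 fell and none rose (median -0.73): nop56 had 39.6 and 33.0 RPKM at 3 h, against 86.2 and 92.1 RPKM at 2 h (-1.29 ± 0.21), and the methyltransferase fib1 fell by 0.87. mamRNA, the non-coding RNA of the locus that also gives snR107, had 37.4 and 47.5 RPKM at 3 h, against 81.1 and 84.2 RPKM at 2 h (-0.96 ± 0.17).

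Of 13 genes of nitrogen starvation 6 fell and 3 rose. The oligopeptide transporter isp4 had 76.8 and 76.1 RPKM at 3 h, against 392 and 314 RPKM at 2 h (-2.21 ± 0.16), and the ammonium transporter amt1 fell by 0.98. With 1 library left out the falls numbered 2 to 4 and the rises 0 to 3. Of 12 genes of the core stress response 10 rose and 2 fell (median 0.92). zym1, a metallothionein, had 106 and 99.3 RPKM at 3 h, against 25.6 and 20.6 RPKM at 2 h (2.16 ± 0.24), the catalase ctt1 rose by 2.00 ± 0.15 and the glutathione peroxidase gpx1 by 1.55 ± 0.14. hsp104, a disaggregase, fell, with 54.4 and 53.8 RPKM at 3 h, against 88.6 and 91.3 RPKM at 2 h (-0.73 ± 0.18), and so did the phosphatase pyp2.

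Among 8 genes of mitotic cell separation, adg2 rose while agn1, the glucanase that splits the septum, had 42.7 and 47.5 RPKM at 3 h, against 125 and 146 RPKM at 2 h (-1.58 ± 0.15). In all 3 rose and 2 fell, but adg1 rose under 2 RPKM, and the fall of adg3 was lost without any 1 library. Of 9 tubulin and spindle motor genes klp6 rose (0.42 ± 0.16) and klp2 and nda2 fell. Leaving out 1 library removed all of these calls, except that of klp2 without wt 3 h replicate 1.

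Among lncRNAs, 31 shared no base with another feature and passed the same criteria as the coding genes. SPNCRNA.3820 (chromosome I, 4078018 to 4078259) had 15.6 and 15.3 RPKM at 3 h, against 0.794 and 0.227 RPKM at 2 h (4.99 ± 0.85), and lies 129 bases from adg2, on the other strand. SPNCRNA.4898 and SPNCRNA.380 rose by 3.49 ± 0.25 and 3.22 ± 0.23, and their nearest coding genes SPBC36.02c and php4 had differences of 0.71 ± 0.20 and -0.18 ± 0.12. SPNCRNA.5421 rose by 2.65 ± 0.36 while psd1, 100 bases away, fell by 0.54. Of the falls, SPNCRNA.2289 had 147 and 201 RPKM at 3 h, against 530 and 653 RPKM at 2 h (-1.76 ± 0.23) and lies 59 bases from rgs1, which also fell. SPNCRNA.3205 had 5.37 and 6.31 RPKM at 3 h, against 55.8 and 72.2 RPKM at 2 h (-3.45 ± 0.42), beside bcs1 (-0.23 ± 0.10). SPNCRNA.3597 (-2.19 ± 0.51) and SPNCRNA.5297 (-1.93 ± 0.54) fell at under 10 RPKM. The call of SPNCRNA.3597 was lost without wt 2 h replicate 2, and that of SPNCRNA.5297 without wt 2 h replicate 1 or wt 3 h replicate 2.

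Several rises lay side by side. Of the 12 largest coding rises 5 (dak2, SPAPJ695.02, ght3, str3 and isp3) lie within 32.4 kb near the left end of chromosome I, from 64559 to 96966. This stretch was noticed after the values were seen, and no test was made of it. All 9 coding genes tested between dak2 and isp3 rose, by 1.98 to 6.45 (median 3.80), and so did 10 of the 15 lncRNAs there, with none falling. ght3 had 102 and 98.0 RPKM at 3 h, against 6.19 and 5.97 RPKM at 2 h (4.04 ± 0.28), and hhy1 had 24.6 and 19.9 RPKM at 3 h, against 6.18 and 5.15 RPKM at 2 h (1.98 ± 0.14). SPAPJ695.01c rested on 14 counts of wt 3 h replicate 1, with none in the other 3 libraries, and without wt 2 h replicate 1 or 2 or wt 3 h replicate 1 the stretch held 8 rises.

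**Figure D4:**
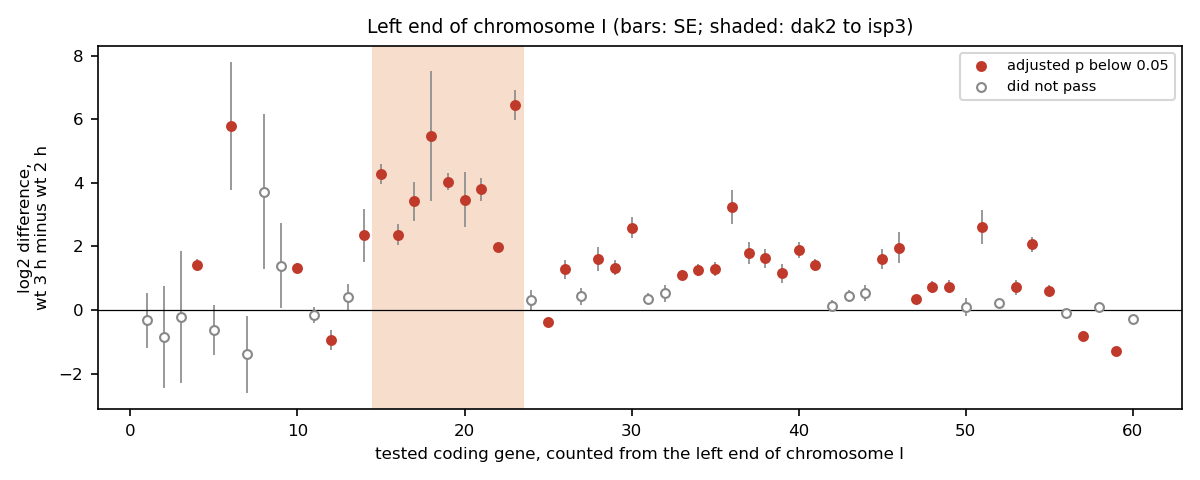
Log2 difference, wt 3 h minus wt 2 h, with SE bars, for the first 60 tested coding genes in their order from the left end of chromosome I; filled red points passed an adjusted p below 0.05 and the stretch from dak2 to isp3 is shaded. All 9 genes of the stretch lie above 1.9, and 35 of the 60 genes rose.

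Rises went on beyond the stretch, many of them at a few RPKM. Such was SPAC11D3.11c, with 2.67 and 1.85 RPKM at 3 h, against 0.820 and 0.656 RPKM at 2 h (1.62 ± 0.29). Others were higher in level. SPAC5H10.03 had 62.0 and 72.1 RPKM at 3 h, against 49.0 and 55.3 RPKM at 2 h, a small rise (0.36 ± 0.13, adjusted p = 0.026). Many of these genes had their highest wt mean in starved or vegetative cells, and others at 7 h or 8 h. Of the first 60 tested coding genes of chromosome I, up to position 180028, 35 rose and 4 fell, and their median was 1.20 beside -0.04 over all coding genes. The rises numbered 28 to 33 with 1 library left out and 42 with total counts. In the outermost 100000 bases, 56.5% of 23 coding genes rose at the left end of chromosome I, 22.2% of 27 at its right end, 2 of 20 at the left and 45.0% of 20 at the right end of chromosome II, and 21.4% of 28 and 17.1% of 35 at those of chromosome III. Away from all ends 16.6% of 4922 rose.

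The motifs printed above were counted in the 300 bases from 250 before to 50 after the start of all 5075 coding genes, on both strands. In these counts, a motif said to stand before a gene may lie anywhere in this window, also in the first 50 bases of the gene. A TR box and a FLEX core may share bases. The TR box core stood in 7.83% of the 281 genes that fell at least 2-fold and in 0.437% of the 229 that rose as much, against 1.99% of all coding genes. Of the 101 genes with it, 53.5% fell and 10.9% rose, beside 23.6% and 16.9% of all coding genes. It was found before 7 of the 17 pheromone genes, which were mam4, ste4, rgs1, spk1, mfm1, mfm3 and ste6, and all 7 fell. Among the other listed genes it stood before ste11, rep1, dhc1, mis4 and nda2, which fell, before mus81 and mug4, which rose, and before mei2, rad50 and wee1, which did not pass.

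The FLEX core was found in 27.5% of the genes that rose at least 2-fold and in 17.8% of those that fell as much, against 16.7% of all coding genes. Yet of all 845 genes with it 22.7% rose and 21.8% fell. It stood before 10 of 18 genes of the divisions and forespore membrane, 4 of which rose, and before 4 of 10 spore wall genes, which all rose. But it also stood before 4 of 17 pheromone genes, which all fell. Of 131 ribosomal protein genes 30 had it, of which 25 fell and none rose. Of the 13 replication genes with it, 2 rose and 2 fell.

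The MluI box stood in 3.93% of the rises and 2.85% of the falls of at least 2-fold, against 3.27% of all coding genes, and its genes parted by role. It stood before 7 of the 8 genes of meiotic cohesin and linear elements, of which 6 rose, and before 7 of the 14 MBF targets (cdt2, cdc22, mrc1, tos4, cdt1, ssb1 and ams2), of which 5 fell and none rose. In the strand exchange list the genes with it included dmc1 and meu13, which rose. A match describes these letters in this window and says nothing of what is bound there.

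The same step was measured in kloopmut cells, which share no library with the wt step. In kloopmut, 19.2% of features (2307) changed between 2 h and 3 h. The count was 1450 without kloopmut 3 h replicate 2 and 305 when its own 4 libraries were fitted alone. Of the wt rises 42.2% and of the wt falls 52.8% were called in the same direction in kloopmut, and 79.0% of the kloopmut rises and 83.7% of its falls were wt calls. Only 5 wt rises and 13 wt falls were called in the opposite direction. The sizes were smaller in kloopmut: the wt rises had a median of 0.86 in wt and 0.45 in kloopmut, and the wt falls -0.69 in wt and -0.46 in kloopmut. As those genes were chosen by their wt change, the comparison of these medians is a description.

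The test of the difference itself, whether the 3 h minus 2 h change differed between strains, called 2.11% of features (253). Of the 17 pheromone genes 8 were among them, and so were 13 of the 24 coding genes with the largest changes. The 24 were picked by the wt change, which is part of the difference. mam3, rgs1, sxa2 and spk1 are in both sets, and the pheromone list was chosen with earlier results known. So nothing is read from either count. In a fit of the 8 libraries alone, ste4 was the only one of the 8 pheromone genes still called. Yet with 1 library left out, the call of ste4 was lost in most fits, as were those of spk1, fus1 and gpa1. Those of mam3, rgs1, sxa2 and mam1 were kept in all of these fits. shk2 fell by 3.98 in wt and by 1.76 in kloopmut (difference -2.21, adjusted p = 1.3e-07), and mam3 by 3.31 in wt and 1.84 in kloopmut (difference -1.46, adjusted p = 0.0017). At 3 h the wt rises of meu10 and adg2 were larger as well, 7.02 in wt and 5.55 in kloopmut for meu10 and 4.45 in wt and 2.64 in kloopmut for adg2. By contrast, no histone, linear element or ribosomal protein gene was called as different. The medians were 1.32 in wt and 1.26 in kloopmut for histones, 0.63 in wt and 0.50 in kloopmut for meiotic cohesin and linear elements, and -1.25 in wt (116 falls) and -0.73 in kloopmut (87 falls) for ribosomal proteins. hsp104 fell in wt (-0.73 ± 0.18) and rose in kloopmut (0.54, adjusted p = 0.030), a difference of -1.28 (adjusted p = 0.0038).

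**Figure D5:**
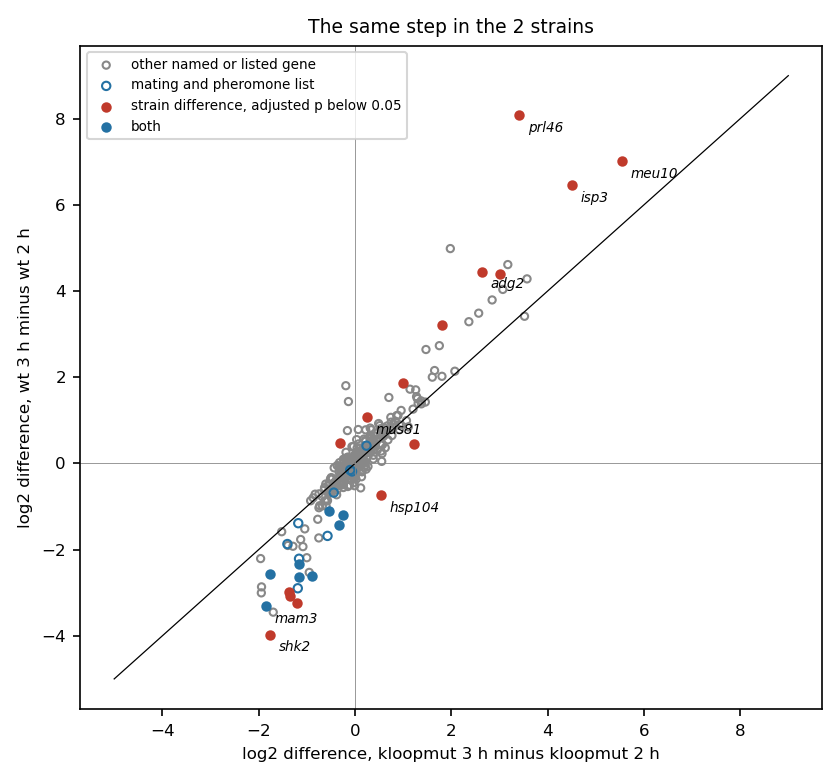
Log2 difference 3 h minus 2 h in wt (vertical) against the same in kloopmut (horizontal), 1 point per named or listed gene, with the line of equal change; filled points differed between strains at an adjusted p below 0.05, and blue marks the pheromone list. meu10, isp3, adg2, shk2 and mam3 lie further from 0 in wt than in kloopmut.

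The 2 h replicates of kloopmut were the least alike of the 4 groups (r = 0.975, against 0.988 for kloopmut 3 h), and their part in these differences was not tested. The count of 253 was 416 without kloopmut 2 h replicate 1, 167 without kloopmut 3 h replicate 1, 163 without wt 3 h replicate 2 and 25 when the 8 libraries were fitted alone.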

How the data were processed

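Poly(A)+ RNA libraries of 40 samples were deposited by the authors as raw read counts per feature, with no normalization. The submitters' processing notes name bcl2fastq 2.20, fastp 0.23.1, STAR 2.6.1d and featureCounts (Subread 2.0.6), and the strand setting and genome build are not given in the sources used here. Of the 12684 features, 12594 had the same start and end as in RefSeq ASM294v3, from which biotypes, overlaps and upstream sequences were taken.

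Counts were fitted with edgeR 4.0.16 in R 4.3.3: TMM factors, filterByExpr (665 features left out), 1 mean for each of the 20 groups, and two-sided quasi-likelihood tests with Benjamini-Hochberg adjustment over the 12019 features tested, threshold 0.05. RPKM were computed from the counts with TMM-scaled library sizes. A floor of 3 counts is 0.0744 to 0.115 CPM, which, like the ratio interval given, covers counting error only. The fit was tested on simulated data. The study's methods give replicates as independent yeast cultures.

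Named genes were the 12 largest rises and 12 largest falls of coding genes, and 4 of each for lncRNAs that share no base, past the test, with the same sign in both replicate numbers, a mean of at least 5 RPKM and an absolute log2 difference of at least 1. The members and lists were chosen with earlier results of these data known, and the stretch on chromosome I after its values were seen. The mating receptors mam2 and map3 had been assigned to the wrong mating types in the first marker lists and were exchanged. The alternatives were other scalings, no filter, DESeq2 1.42.0, limma-voom 3.58.1, a replicate block, fewer libraries, an effect-size limit and features under 10% overlap. Some genes are not reported here.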

Additional observations from a re-analysis of the deposited data

Results flagged for a closer look

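For 23 of the named or listed genes the 3 h minus 2 h change differed between strains in edgeR's quasi-likelihood test, and each value here is the log2 change of wt minus that of kloopmut. Among the spore and other rising genes it was 4.67 for prl46, 1.95 for isp3, 1.81 for adg2, 1.47 for meu10, 1.39 for spo5, 0.86 for mei4, 0.82 for mus81 and 0.79 for agn2, and 1.41 for the lncRNA SPNCRNA.380. Among the mating genes it was -2.21 for shk2, -2.04 for dni2, -1.73 for mam2, -1.71 for sxa2, -1.63 for dni1, -1.48 for rgs1, -1.46 for mam3, -1.18 for mam1, -1.09 for fus1, -0.96 for ste4, -0.81 for spk1 and -0.57 for gpa1. Of the stress genes it was -1.28 for hsp104, which fell in wt and rose in kloopmut, and -0.77 for tps1, the trehalose-phosphate synthase.

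Of the 23 differences, 13 were called with any 1 of the 8 libraries left out and 5 (adg2, spo5, shk2, ste4 and hsp104) in a fit of those 8 libraries alone. Those of fus1, tps1 and gpa1 were lost with each library left out, and those of ste4, spk1, isp3 and mei4 in most of these fits.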

How the results depend on the processing

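The wt step gave 3934 calls, and 4824 with its own libraries alone. It gave 1321 when an absolute log2 difference of at least 1 was required as well, 471 among features under 10% overlap, and 2685 to 2927 with 1 library left out. The kloopmut step (2307 calls) gave 516 and 253 under the same restrictions, 305 with its own libraries alone, and 1450 to 2247 with 1 library left out, the lowest without kloopmut 3 h replicate 2. The strain difference (253 calls) gave 126 and 34 under those restrictions, 25 with the 8 libraries alone, 459 with DESeq2, and 163 to 416 with 1 library left out. The overlap limit and the left-out libraries reduce the features or samples tested, and the cause of the other shifts was not tested. With a replicate block the counts were 4203, 2578 and 352. The deviations of same-numbered libraries correlated at 0.199 in wt and 0.464 in kloopmut, but no label says that a number marks 1 culture.

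Of the 179 named or listed genes called, none changed direction under any alternative run. The block kept all 179, DESeq2 167, DESeq2 size factors 164, total counts 146, and leaving out 1 library 131 to 143. With 2 libraries a group, changes of low-level features such as SPAPJ695.01c are least certain, and most features share bases with another.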
